A study of Mus musculus with 8 samples.

Results

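Ribosome biogenesis factors are the proteins that make, fold, trim and carry out of the nucleolus the ribosomal RNA of both ribosomal subunits. The set described here holds 41 genes, taken by symbol or older alias from the probes of an Agilent mouse array that are not controls. All 41 genes were found, with 57 probes of the 55681 on the array. The cells were mouse embryonic stem cells taken through neural induction to day 6, which the labels call RGC-like NPC, meaning neural progenitors with radial glia character. KD cells (4 arrays) carried a short hairpin RNA against Zrf1, and Control cells (4 arrays) carried a control hairpin. The promoter of the hairpins, the number of cell lines or clones and the culture behind each replicate are unstated in the labels, so p-values measure only the spread between these samples, which may be technical.

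In the nucleolus, RNA polymerase I transcribes one long precursor RNA, and small nucleolar RNPs (snoRNPs) guide its chemical modification. The SSU processome assembles on the precursor and forms the early 40S particle, while other factors, among them the PeBoW complex, shape the 60S particle. These genes are known for high expression in growing stem and progenitor cells, and many are known targets of Myc. Zrf1, now called Dnajc2, is a J-domain chaperone partner that binds ribosomes in the cytosol and has also been described on chromatin.

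Levels are given as log2 signal, the log2 of the processed spot intensity minus the log2 of the 75th percentile of its array, so 0 is that percentile. Levels of different probes are not compared. A change is the KD mean minus the Control mean on this log2 scale, with its standard error (SE). A gene is written as lower or higher when limma gave an adjusted p under the threshold of 0.05 over all 29091 tested probes, and its brightest probe stood for it, which gave 21750 genes. Values are listed in the order of replicates 1 to 4 of each group. On each array, 53.4% to 60.3% of spots were well above background, and all 57 probes of the set were so on all 8 arrays. The 8 arrays lie on 3 slides, each of which holds both groups. Probe coordinates are those of the deposited files, on mouse build mm9. Dnajc2 itself, measured by 1 tested probe (chr5:21272454-21272513, minus strand), had log2 signals of -2.17, -2.08, -2.51 and -2.53 in KD arrays, against 1.75, 1.87, 1.85 and 2.02 in Control arrays, a change of -4.19 ± 0.12 (adjusted p = 1.39e-07).

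Most genes of the set were lower in KD cells. In bulk RNA, fewer cells of a type and less RNA per cell cannot be told apart. Of the 41 genes, 28 were lower, 2 were higher and 11 were not called. Over all tested genes, 28.5% were lower and 29.1% were higher by the same rule. The median change of the set was -0.43, against 0.04 over all tested genes. All 4 KD arrays lay below all 4 Control arrays for 28 of the 41 genes, and for 27.3% of all tested genes. Changes of at least 2-fold downwards were found for 4 of the 41 genes, Pes1, Imp4, Utp20 and Nop56, and for 7.46% of all tested genes. Most of the set therefore moved by less than 2-fold. By probe, 38 of 57 were lower, 3 were higher and 16 were not called, where 28.1% of all tested probes were lower.

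The share of lower genes differed with signal across the array. With the tested genes split into 4 equal bins by mean signal, 12.7%, 24.6%, 38.8% and 37.9% were lower, dimmest bin first. The brightest bin holds 27 of the 41 genes, of which 18 were lower, with a median change of -0.37 where the whole bin had a median of -0.05. The next bin holds 12, of which 9 were lower, with a median of -0.57 where the whole bin had -0.07. The median log2 signal over the 41 genes was 3.61, 3.53, 3.52 and 3.52 in the KD arrays, against 3.72, 3.88, 3.99 and 4.01 in the Control arrays, so the groups did not overlap. With the slide as a block, 29 genes were lower and 2 higher. Within slides 1, 2 and 3 the median change was -0.41, -0.44 and -0.39, and 31 of the 41 genes had a KD mean below the Control mean on all 3 slides. The deposited names of KD arrays 1 and 2 share a number, as do those of KD arrays 3 and 4. In each such pair 1 name also carries the letters TR, which are not explained and may mark a technical repeat. With each such pair averaged 25 genes were lower and 1 was higher.

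Markers of cell type and of proliferation moved with the same groups. For comparison, 28.5% of all tested genes were lower and 29.1% were higher. Of 14 radial glia and neural progenitor markers, 12 were lower, and their summed linear signal, in units of each array's 75th percentile, was 37.4 to 38.9 in KD arrays and 156 to 167 in Control arrays. Fabp7, a radial glia gene with the largest change of the list (-7.96), was not well above background on any KD array. On all 4 Control arrays it was, with log2 signals of 2.75, 2.79, 2.94 and 2.79, and it was tested through those arrays alone. The 2 markers not called were Pax6 (-0.24, adjusted p = 0.101) and Ncan (-0.28, adjusted p = 0.0955). All 14 tested endoderm markers were higher, with a summed signal of 332 to 378 in KD arrays and 156 to 178 in Control arrays. Krt18 weighs most in that sum, with mean log2 signals of 8.03 in KD arrays and 6.94 in Control arrays. Gata4, Afp and Cubn add little to it, with means of -0.88, -0.89 and 1.76 in KD arrays and -3.73, -5.99 and -3.62 in Control arrays. Afp, a visceral endoderm gene, was well above background on all 4 KD arrays and on no Control array. Afp, Gata4, Cubn and Ttr were tested because every KD array had them well above background, which not every Control array did. For these genes the filter thus used the group in which they were high. Apoa1, also listed, was dim on all arrays and was not tested. Of 17 proliferation markers, 13 were lower, with a summed signal of 567 to 606 in KD arrays and 838 to 904 in Control arrays. Their falls were uneven, from -1.23 for E2f1 and -1.19 for Rrm2 to -0.26 for Mki67 and -0.21 for Ccnb1. The 4 not called were Cdk1 (0.58), Top2a (0.15), Plk1 (-0.05) and Ccna2 (-0.1). In both groups Cdk1 lay higher on slide 2 than on slides 1 and 3, which widened its SE to 0.80. With the slide as a block in limma Cdk1 was higher (adjusted p = 0.00474), by 0.84, 0.43 and 0.63 within slides 1, 2 and 3. The summed signal of the 41 ribosome biogenesis genes was 950 to 1030 in KD arrays and 1200 to 1370 in Control arrays. The part of these cell type and proliferation shifts in the changes of the ribosome biogenesis genes was not tested.

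**Figure D1:**
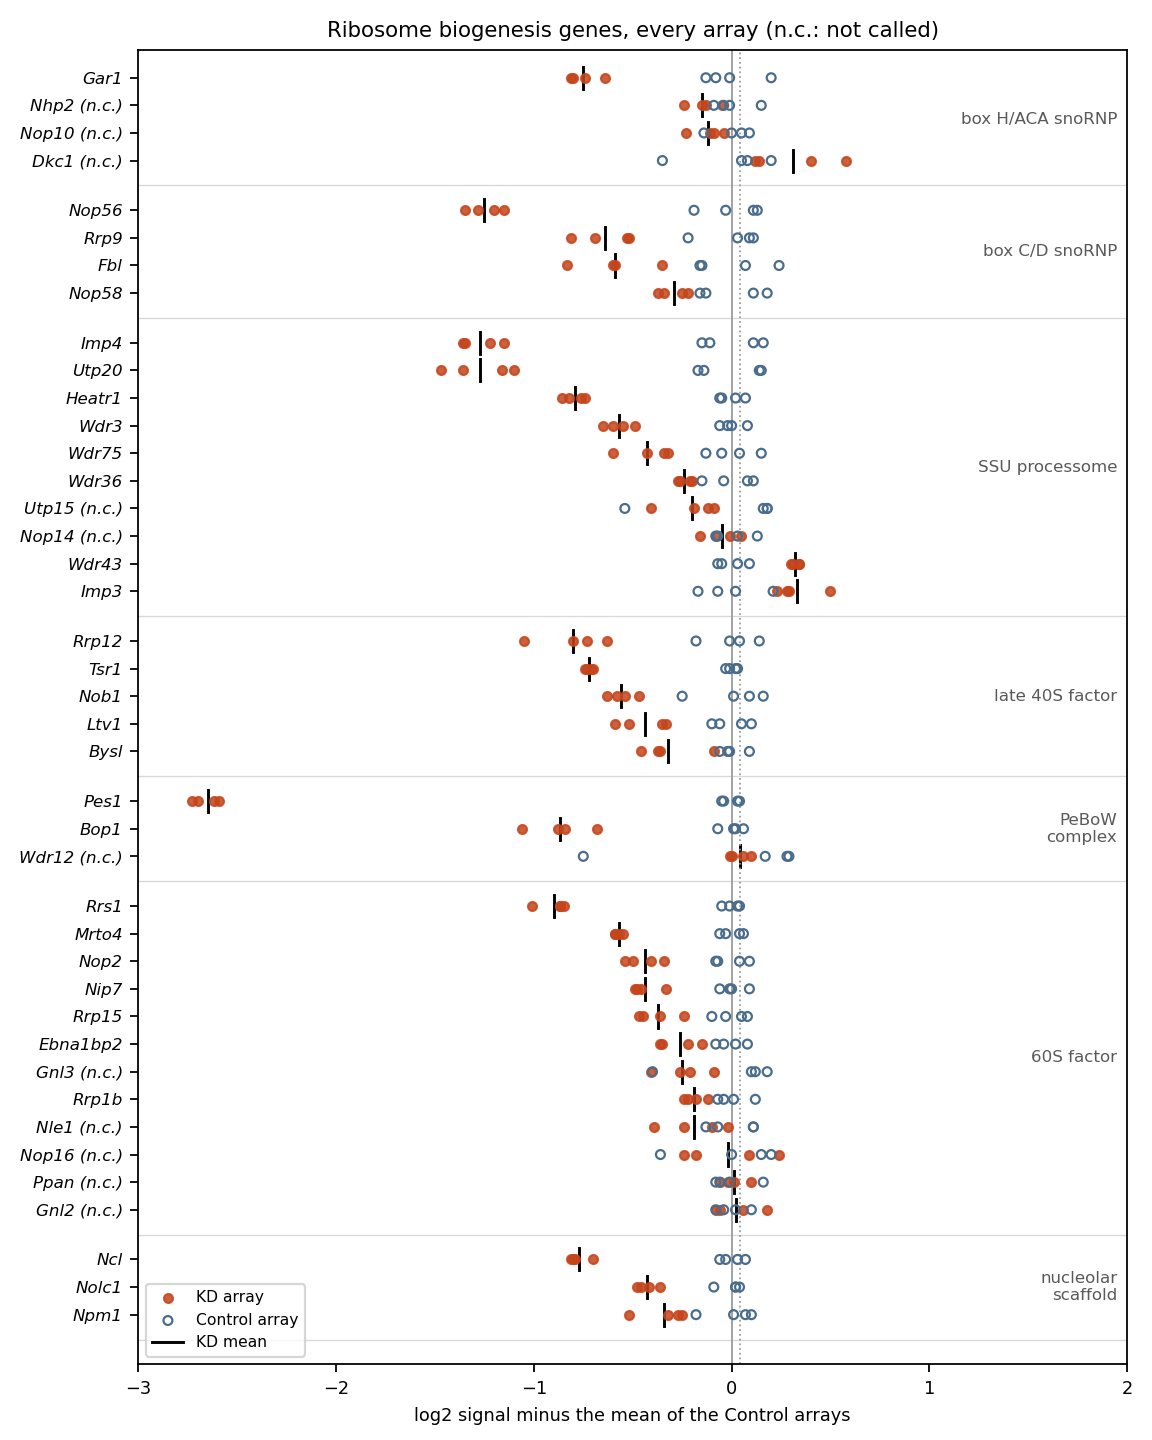
Each row is 1 of the 41 genes, grouped by role, and each point is 1 array, plotted as its log2 signal minus the mean of the 4 Control arrays (filled, KD; open, Control; bar, KD mean; dotted line, the median change of 0.04 over all tested genes). KD points lie left of all Control points in 28 rows, Pes1 lies farthest at -2.65, and Wdr43 and Imp3 are the 2 genes called higher.

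Box C/D snoRNPs place methyl groups on ribosomal RNA, and all 4 of their protein genes in the set were lower, with a median change of -0.61. Nop56, a scaffold protein that holds the snoRNA (chr2:130104982-130105041), had log2 signals of 4.93, 4.88, 4.73 and 4.80 in KD arrays, against 5.89, 6.05, 6.21 and 6.19 in Control arrays. All KD arrays lay below all Control arrays, a change of -1.25 ± 0.09 or 2.38-fold lower (adjusted p = 9.56e-06). Rrp9, the protein specific to the U3 snoRNP (chr9:106386845-106387461), had log2 signals of 2.10, 1.81, 1.93 and 2.09 in KD arrays, against 2.71, 2.73, 2.65 and 2.40 in Control arrays, a change of -0.64 ± 0.10 (adjusted p = 0.000902). Its groups did not overlap. Fbl is fibrillarin, the methyltransferase of the particle, and changed by -0.59 ± 0.13 (adjusted p = 0.00488), with log2 signals between 3.04 and 3.52 in KD arrays and between 3.71 and 4.11 in Control arrays. Nop58, the partner of Nop56 in the same particle, had the smallest change of the 4 at -0.29 ± 0.10 (adjusted p = 0.0311), and its call was lost under 9 of the 19 other settings tried.

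Box H/ACA snoRNPs convert uridine to pseudouridine, and of their 4 core protein genes only Gar1 was lower. Gar1 (chr3:129527855-129527914) had log2 signals of 4.90, 4.80, 4.74 and 4.73 in KD arrays, against 5.41, 5.46, 5.74 and 5.53 in Control arrays, a change of -0.75 ± 0.09 (adjusted p = 0.000147). The other 3 did not pass the test, and their groups overlapped. Dkc1, dyskerin, the pseudouridine synthase, had log2 signals of 1.51, 1.97, 1.79 and 1.53 in KD arrays, against 1.47, 1.44, 1.04 and 1.59 in Control arrays, with a change of 0.31 ± 0.15 (adjusted p = 0.111). Its change was 0.56 within slide 2 and 0.07 and 0.06 within slides 1 and 3. Nhp2, an RNA-binding core protein, had 6.89, 6.70, 6.81 and 6.79 in KD arrays, against 6.85, 6.90, 7.09 and 6.93 in Control arrays (adjusted p = 0.142). Nop10, the smallest core protein, had 5.15, 5.08, 4.96 and 5.10 in KD arrays, against 5.19, 5.28, 5.05 and 5.24 in Control arrays (adjusted p = 0.224). Nhp2 and Nop10, though not called, had a KD mean below the Control mean on all 3 slides. The 2 kinds of snoRNP thus gave 4 of 4 and 1 of 4 genes lower, where 28.5% of all tested genes were lower. The difference between the 2 kinds was not tested.

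The SSU processome held both the next-largest falls of the set and both of its rises, with 6 of 10 genes lower and a median change of -0.33. Imp4, which binds U3 snoRNA together with Imp3 and Mphosph10 (chr1:34501741-34501800), had log2 signals of 0.34, 0.54, 0.47 and 0.33 in KD arrays, against 1.54, 1.58, 1.85 and 1.80 in Control arrays. That is 2.42-fold lower, a change of -1.27 ± 0.10 (adjusted p = 1.16e-05), and the groups did not overlap. Utp20, a very large scaffold protein (chr10:88209709-88209768), had -1.01, -0.75, -0.81 and -1.12 in KD arrays, against 0.21, 0.49, 0.18 and 0.50 in Control arrays, a change of -1.27 ± 0.12 (adjusted p = 3.61e-05). Heatr1, known in yeast as Utp10 and needed for precursor transcription, changed by -0.79 ± 0.06 (adjusted p = 1.73e-05). Wdr3 and Wdr36, subunits of the UtpB module, changed by -0.57 ± 0.06 and -0.24 ± 0.07 (adjusted p = 0.000113 and 0.0232), and Wdr75, of the UtpA module, by -0.43 ± 0.09 (adjusted p = 0.00412). The call of Wdr36 was lost under 10 of the 19 other settings.

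Imp3, the direct partner of Imp4, was higher in KD cells (chr9:56786107-56786166). It had log2 signals of 5.84, 5.63, 5.62 and 5.57 in KD arrays, against 5.17, 5.27, 5.55 and 5.36 in Control arrays, a change of 0.33 ± 0.10 (adjusted p = 0.0242). The lowest KD array exceeded the highest Control array by a small margin, and the call was lost under 8 of the 19 other settings, among them scaling by the median (0.16, adjusted p = 0.445). Wdr43, of the UtpA module, was higher by its brightest probe, with 3.61, 3.57, 3.61 and 3.58 in KD arrays, against 3.36, 3.20, 3.30 and 3.22 in Control arrays, a change of 0.32 ± 0.06 (adjusted p = 0.00226), while its other probe was lower. Scaling by the median took its change to 0.16 (adjusted p = 0.325). Neither of these 2 genes was called higher under that scaling.

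Nop14 and Utp15 did not pass the test. Nop14, a 40S factor that in yeast binds Emg1, had log2 signals of 1.77, 1.69, 1.90 and 1.84 in KD arrays, against 1.88, 1.98, 1.77 and 1.78 in Control arrays (adjusted p = 0.628), and its groups overlapped throughout. Utp15, a UtpA subunit, had -1.68, -1.39, -1.36 and -1.46 in KD arrays, against -1.09, -1.09, -1.81 and -1.11 in Control arrays (adjusted p = 0.371). Control array 3 lay below all other arrays there, and without it the change of Utp15 was -0.38 (adjusted p = 0.0106).

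All 5 genes grouped as late 40S factors were lower, with a median change of -0.56. Rrp12, which accompanies the particle to the cytoplasm (chr19:41945749-41945925), had log2 signals of 0.25, 0.00, 0.32 and 0.42 in KD arrays, against 1.04, 1.09, 1.19 and 0.87 in Control arrays, a change of -0.80 ± 0.11 (adjusted p = 0.000353). Tsr1, a GTPase-like factor that blocks early subunit joining (chr11:74722413-74722472), had 1.52, 1.53, 1.56 and 1.55 in KD arrays, against 2.28, 2.29, 2.23 and 2.25 in Control arrays, a change of -0.72 ± 0.05 (adjusted p = 1.09e-05). The SD of Tsr1 was 0.02 in KD arrays and 0.03 in Control arrays, small beside the gap between groups. Nob1, the endonuclease that makes the final cut of 18S ribosomal RNA, changed by -0.56 ± 0.10 (adjusted p = 0.00132). Ltv1, an export adaptor in yeast, changed by -0.44 ± 0.09 (adjusted p = 0.00229) and Bysl, the counterpart of yeast Enp1, by -0.32 ± 0.09 (adjusted p = 0.0166). The call of Bysl was lost under 2 of the 19 other settings. Its change was -0.07 within slide 1, against -0.43 and -0.34 within slides 2 and 3.

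The PeBoW complex, in which Pes1, Bop1 and Wdr12 together drive processing of the RNA between 5.8S and 28S, held the largest fall of the set. Pes1, the BRCT-domain subunit, had by its brightest probe log2 signals of 0.28, 0.31, 0.39 and 0.42 in KD arrays, against 2.96, 3.04, 3.05 and 2.97 in Control arrays. These are 6.3-fold lower in KD cells, a change of -2.65 ± 0.06 (adjusted p = 7.71e-08), and the SD was 0.07 in KD arrays and 0.05 in Control arrays. Bop1, the subunit that bridges the other two (chr15:76283572-76283631), had 3.40, 3.20, 3.02 and 3.24 in KD arrays, against 4.09, 4.14, 4.10 and 4.01 in Control arrays, a change of -0.87 ± 0.09 (adjusted p = 6.42e-05). Wdr12 had 3.99, 3.93, 3.92 and 4.03 in KD arrays, against 3.18, 4.22, 4.21 and 4.10 in Control arrays by its brightest probe and did not pass the test (adjusted p = 0.893). Its Control array 1 lay at 3.18, below all other arrays, and without that array the change was -0.21 (adjusted p = 0.0468). The brightest probe gave only part of the data on Pes1 and Wdr12, whose other probes gave other values.

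Of the 12 other 60S factors, 7 were lower, none was higher and 5 were not called, with a median change of -0.26. Rrs1, which brings the 5S RNP into the particle in yeast (chr1:9537213-9537272), had log2 signals of 1.96, 2.10, 2.12 and 2.10 in KD arrays, against 3.00, 3.01, 2.96 and 2.92 in Control arrays, a change of -0.90 ± 0.06 (adjusted p = 7.73e-06). Mrto4, which in yeast holds the place of a stalk protein (chr4:138903422-138903481), had 3.81, 3.83, 3.81 and 3.85 in KD arrays, against 4.34, 4.44, 4.37 and 4.46 in Control arrays, a change of -0.57 ± 0.06 (adjusted p = 5.84e-05). For both genes the gap between groups was several times the range within a group. Nop2, a methyltransferase of 28S ribosomal RNA, changed by -0.44 ± 0.08 and Nip7, a factor that binds the 60S precursor, by -0.44 ± 0.07 (adjusted p = 0.00118 and 0.000635). Rrp15 changed by -0.37 ± 0.08, Ebna1bp2, known in yeast as Ebp2, by -0.26 ± 0.07 and Rrp1b by -0.19 ± 0.07 (adjusted p = 0.0036, 0.0156 and 0.0401). The call of Rrp1b was lost under 13 of the 19 other settings, the most of any gene in the set, and that of Ebna1bp2 under 5.

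The 5 genes of this group that did not pass the test had overlapping arrays. Gnl3, nucleostemin, a GTPase of stem cell nucleoli, had log2 signals of 2.91, 3.23, 3.11 and 3.06 in KD arrays, against 3.44, 3.50, 2.92 and 3.42 in Control arrays (adjusted p = 0.168). Control array 3 was again the low one, and without it the change was -0.38 (adjusted p = 0.00837). Gnl2, a related nucleolar GTPase, had 4.18, 4.06, 3.94 and 3.92 in KD arrays, against 3.96, 3.92, 4.10 and 4.02 in Control arrays (adjusted p = 0.827), and it was called higher in the authors' values, at 0.17 (adjusted p = 0.0466). Nop16 had 2.83, 2.89, 3.16 and 3.31 in KD arrays, against 3.22, 3.27, 2.71 and 3.07 in Control arrays (adjusted p = 0.936), and Ppan, a 60S factor known in yeast as Ssf1, had 5.46, 5.34, 5.30 and 5.37 in KD arrays, against 5.28, 5.30, 5.52 and 5.35 in Control arrays (adjusted p = 0.942). Nle1, a substrate of the remodelling ATPase Mdn1, had 2.17, 1.80, 1.95 and 2.09 in KD arrays, against 2.30, 2.30, 2.12 and 2.06 in Control arrays (adjusted p = 0.153), and with the slide as a block it was lower (adjusted p = 0.0495).

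All 3 nucleolar scaffold and chaperone genes were lower. Ncl, nucleolin, which binds nascent ribosomal RNA (chr1:88247953-88248012), had log2 signals of 6.38, 6.27, 6.28 and 6.29 in KD arrays, against 7.05, 7.15, 7.11 and 7.02 in Control arrays, a change of -0.77 ± 0.06 (adjusted p = 1.67e-05). Its change was -0.77, -0.78 and -0.76 within slides 1, 2 and 3. Nolc1, which chaperones snoRNPs, had 4.55, 4.49, 4.51 and 4.61 in KD arrays, against 5.01, 4.99, 4.88 and 4.99 in Control arrays, a change of -0.43 ± 0.06 (adjusted p = 0.000527). Npm1, nucleophosmin, the main protein of the granular nucleolus, changed by -0.34 ± 0.09 (adjusted p = 0.0137).

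**Figure D2:**
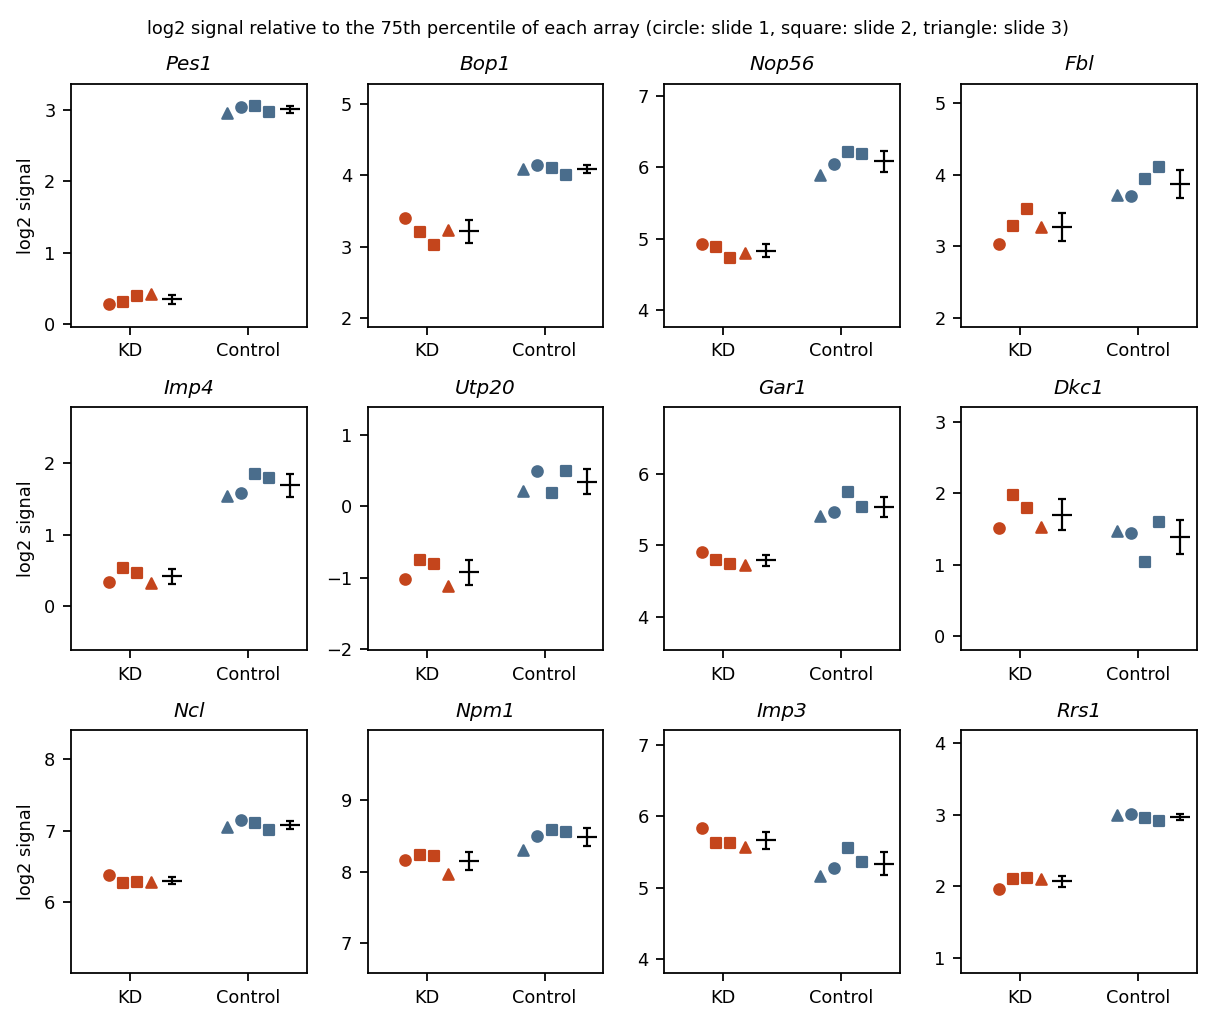
Log2 signal of 12 genes on every array, KD left of Control, on axes of equal height (points by slide; bars, mean ± SD, n = 4). The KD and Control arrays of Dkc1 overlap, Imp3 stands slightly higher in KD arrays, and for the other 10 genes every KD array lies below every Control array, by the widest gap for Pes1.

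For 12 of the 41 genes more than 1 probe was tested, and in 5 of them the 2 probes gave values 0.82 to 2.19 apart. The exact permutation test over the 8 arrays compared the brightest probe with each other probe of its gene in 16 pairs. In 5 pairs, 1 each of Pes1, Wdr12, Wdr43, Nip7 and Nolc1, the difference between probes did not overlap between KD and Control arrays (exact permutation p = 0.0286 each, the smallest that 4 against 4 can give, and adjusted p = 0.0914 over the 16 pairs). None of the 16 passed after adjustment, but a smallest p of 0.0286 leaves little room to pass, so this does not show that probes agreed. The other 7 genes had pairs that differed by 0.38 or less, and for Nop56, Tsr1, Mrto4 and Ncl all probes were lower.

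The 2 probes of Pes1 differed by -2.19 in their change, so its 6.30-fold value holds for 1 probe, and the mean of both probes changed by -1.56. The downstream probe, at base 2851 of the transcript (chr11:3879948-3880007, mm9, plus strand), is the bright one described above. The upstream probe, at base 533 (chr11:3873303-3873362), had log2 signals of -0.43, -0.44, -0.11 and 0.18 in KD arrays, against 0.26, 0.61, 0.03 and 0.16 in Control arrays, a change of -0.46 ± 0.18 that missed the threshold (adjusted p = 0.052). Its groups overlapped. Both sequences are shown because the choice between them decides the value for Pes1. The first line is the whole upstream probe. The second is the first 22 bases of the downstream probe, which occur again from its base 39 with 21 matches, the capital marking the base at which the second copy differs (C13T, counted from the first base of the unit).
Pes1 upstream probe: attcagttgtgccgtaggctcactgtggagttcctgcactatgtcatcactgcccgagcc
Pes1 downstream probe, repeated unit: aagtatgtatggCtcacacttc
A repeated unit this long was found in no other probe of the set, where the longest had 8 matches, and in 5 of 1455 tested probes taken at even steps through the list. Whether the downstream probe also binds other transcripts was not tested.

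Wdr12, not called by its brightest probe, was lower by its other one. The probe farther downstream on the minus strand of chromosome 1 (chr1:60134539-60134598) had 0.33, 0.33, 0.34 and 0.37 in KD arrays, against 1.53, 1.61, 1.66 and 1.60 in Control arrays, a change of -1.26 ± 0.06 (adjusted p = 9.52e-07), and its groups did not overlap. The brightest probe (chr1:60134982-60135040) ends in 6 A, as do a probe of Nop56 and a probe of Mrto4, genes whose probes were all lower. The share of all tested probes with such an end was not counted. Wdr43 was higher by the probe at base 2234 of its transcript (chr17:72007156-72007215) and lower by the probe at base 3106 (chr17:72008028-72008087), which had 2.57, 2.49, 2.54 and 2.52 in KD arrays, against 3.13, 3.22, 3.15 and 3.02 in Control arrays, a change of -0.60 ± 0.07 (adjusted p = 9.26e-05). The upstream probe of Wdr43 carries AATAAA, the usual polyadenylation signal, near its end. The last 30 bases of these 4 probes are shown with that signal in capitals, because the call of both genes depends on which probe is read.
Wdr12 brightest probe: ttgaaaatgaatggctgagaagagaaaaaa
Wdr12 other probe: gcttataaaatacagtaagtatgtggtctg
Wdr43 upstream probe: taagagtgtttcattcaaatgttAATAAAc
Wdr43 downstream probe: accagtaatttgtcttgtttctaaggagtg
AATAAA was present in 6 of the 57 probes of the set (10.5%) and in 12.3% of all tested probes.

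Nolc1 was lower by both probes, by -0.43 ± 0.06 at base 2490 and by -1.25 ± 0.11 at base 2950 (adjusted p = 3.38e-05 for the second). The second had log2 signals of -0.64, -0.58, -0.46 and -0.43 in KD arrays, against 0.86, 0.83, 0.40 and 0.78 in Control arrays. Nip7 went the other way from Nolc1 along its transcript. Its brightest probe, at base 955, was lower, with log2 signals of 4.90, 4.74, 4.75 and 4.77 in KD arrays, against 5.17, 5.22, 5.32 and 5.23 in Control arrays. Its probe at base 2969 was higher, with 1.78, 1.78, 1.65 and 1.74 in KD arrays, against 1.34, 1.32, 1.31 and 1.08 in Control arrays, a change of 0.48 ± 0.08 (adjusted p = 0.00102). The groups did not overlap for either probe of Nip7.

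In Npm1, Ebna1bp2 and Wdr36 the probes differed in call but not beyond 0.40 in change. Npm1 had log2 signals of 8.17, 8.24, 8.22 and 7.97 in KD arrays, against 8.31, 8.50, 8.59 and 8.56 in Control arrays by its brightest probe, and its 4 probes changed by -0.34, -0.24, -0.24 and -0.17. The probes at bases 1145 and 861 were lower, and those at bases 672 and 655 did not pass the test (adjusted p = 0.397 and 0.0884). Ebna1bp2 had 5.45, 5.25, 5.24 and 5.38 in KD arrays, against 5.52, 5.62, 5.68 and 5.56 in Control arrays by its brightest probe, at base 1088, and its probe at base 222 was lower as well (-0.29 ± 0.08, adjusted p = 0.0183). Its remaining probe, at base 2415, had -0.68, -0.58, -0.44 and -0.46 in KD arrays, against -0.52, -0.42, -1.12 and -0.56 in Control arrays, which overlapped (adjusted p = 0.571). Wdr36 had 1.86, 1.92, 1.85 and 1.91 in KD arrays, against 2.20, 2.23, 1.97 and 2.08 in Control arrays by the probe that stood for it. Its dimmer probe had -0.77, -0.47, -0.28 and -0.32 in KD arrays, against 0.05, 0.12, -0.68 and -0.19 in Control arrays, with a similar change of -0.29 ± 0.19 but a wider spread (adjusted p = 0.24).

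This difference along the transcript was set beside all genes whose tested probes lie at least 200 bases apart on 1 RefSeq transcript, a comparison chosen after the values were seen. Of 2654 such genes, 15% had changes 0.8 or more apart between the outermost probes, and the downstream probe was the lower one in 275 of these 398. In the set, 8 genes qualified and 4 of them passed that size, Pes1, Wdr43 and Nolc1 with the downstream probe lower and Nip7 with it higher. The size of 0.8 lies just below the difference of Nolc1 (-0.82), so 4 of 8 against 15% is not an independent comparison. Wdr12 does not enter, since its probes were designed on 2 different sequences. Exon and UTR positions of the probes were not analysed here.

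**Figure D3:**
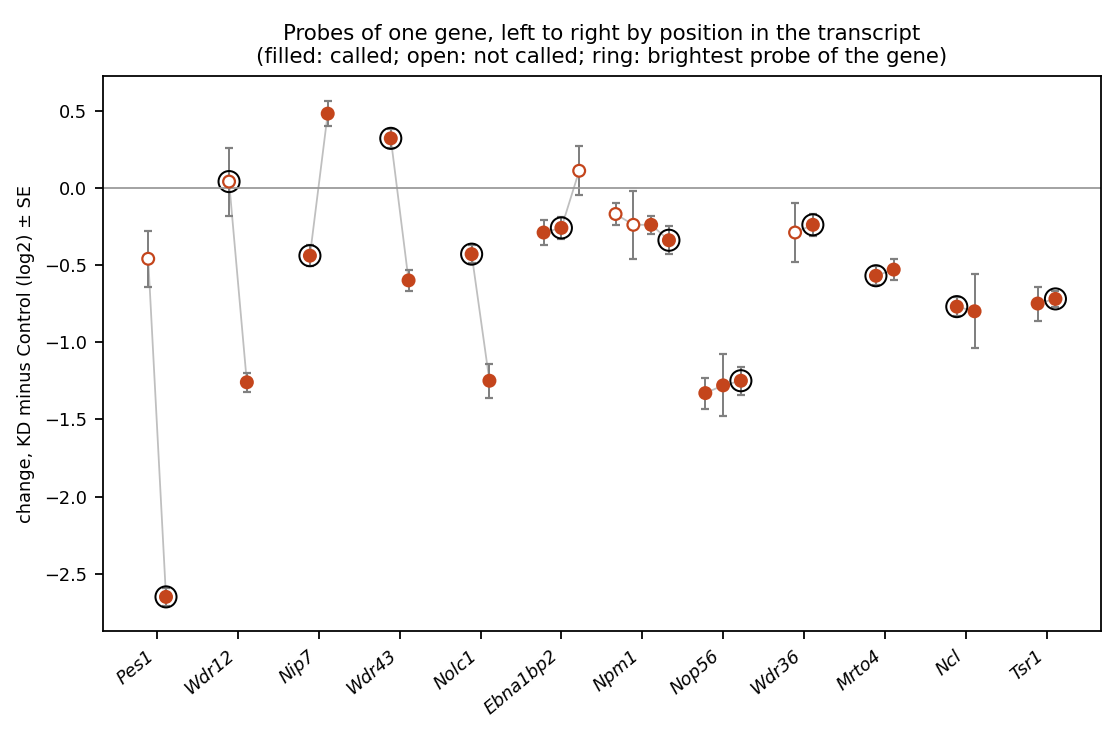
Change in log2 signal, KD minus Control, ± SE for every probe of the 12 genes with several, left to right by position in the transcript (filled, called; open, not called; ring, brightest probe). The probes of Pes1, Wdr12, Nip7, Wdr43 and Nolc1 lie 0.82 to 2.19 apart, and those of the other 7 genes lie within 0.40 of each other.

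Since many of the genes moved together and Myc binds the E-box CACGTG, promoters were searched for it. RefSeq windows of 250 bases before to 50 after the gene start (GRCm38.p6) were found for 34 of the 41 genes. CACGTG, which reads the same on both strands, occurred in 8 of the 34 (23.5%), against 11.3% of 11481 tested genes with a window and 7.15% of all 32851 windows. The 8 genes are Imp4, Nop2, Pes1, Wdr43, Nle1, Tsr1, Ltv1 and Utp20. Of these, 6 were lower, with a median change of -0.58, while of the 26 without the motif 16 were lower, with a median of -0.30, and of the 7 without a window 6 were lower, with a median of -0.59. These differences were not tested. In 6 of the 8 genes the motif lies 3 to 38 bases after the start, and in Imp4 and Nop2 it begins upstream, at -121 and -60. Those 2 upstream stretches are shown on the plus strand with the motif in capitals, from chr1:34439666-34439755 and chr6:125131781-125131870.
Imp4 promoter: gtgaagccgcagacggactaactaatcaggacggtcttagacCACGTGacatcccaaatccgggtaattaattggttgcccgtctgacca
Nop2 promoter: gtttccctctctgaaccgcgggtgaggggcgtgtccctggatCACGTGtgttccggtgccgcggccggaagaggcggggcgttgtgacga
A match describes the letters of the window and not binding, which was not measured. Rrs1, Fbl, Bop1, Npm1, Rrp12, Gnl2 and Wdr36 were without a window.

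Of 119 further ribosome biogenesis genes, 115 were tested. Of these, 70 were lower, 7 were higher and 38 were not called, with a median change of -0.33, where 28.5% of all tested genes were lower. In the 2 brightest of the 4 signal bins that share was 38.8% and 37.9%, and these genes were not matched for signal. The number called higher depended on the scaling, with 1 under scaling by the median and 11 under quantile normalization. Each gene was read by its brightest probe, and its other probes were not compared. Genes of RNA polymerase I and its factors were lower in 12 of 14 cases and higher in none, with a median of -0.41. Polr1b, the second-largest subunit of the polymerase, had log2 signals of 0.82, 0.89, 0.97 and 0.98 in KD arrays, against 2.38, 2.48, 1.89 and 2.37 in Control arrays, and had the largest change of the list at -1.37 ± 0.13 (adjusted p = 3.92e-05). Polr1g, another subunit, and Taf1c, a subunit of the promoter factor SL1, changed by -0.92 and -0.83 (adjusted p = 3.01e-05 and 6.89e-05). Assembly and partner proteins of snoRNPs were lower in 6 of 10 cases and higher in 1, among them the ATPase Ruvbl1 (-0.98, adjusted p = 8.24e-06), its cofactor Pih1d1 (-1.15, adjusted p = 8.9e-06) and the H/ACA assembly factor Naf1 (-0.43, adjusted p = 0.000725). The exception was Nufip1 (0.42, adjusted p = 0.00135), a C/D assembly factor, which was higher.

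Further 40S factors were lower in 20 of 33 cases and higher in 3, with a median of -0.37. The smallest p-values among those lower were those of Noc4l (-0.80, adjusted p = 5.56e-05), the cytoplasmic kinase Riok2 (-0.62, adjusted p = 7.59e-05) and the processome protein Utp3 (-0.69, adjusted p = 0.000121). Utp11, Fcf1 and Utp6, also processome proteins, were higher by 0.66, 0.46 and 0.57 (adjusted p = 0.000747, 0.000996 and 0.00981). These and the other rises of the lists were called under the main scaling, and scaling by the median left 1 gene of all these lists higher. Further 60S factors were lower in 20 of 39 cases and higher in 2, with a median of -0.22. Among them Nifk (-0.67, adjusted p = 3.09e-05), Pelp1 (-0.77, adjusted p = 5.83e-05) and Ftsj3 (-0.92, adjusted p = 0.00122) were lower, and Surf6 (0.50, adjusted p = 0.00161) and Nsa2 (0.25, adjusted p = 0.0485) were higher. The RNA exosome and RNase MRP list, which trims and cuts precursor RNA, was lower in 12 of 19 cases and higher in 1. It was led by Pop4 (-0.71, adjusted p = 1.32e-05), Pop1 (-1.11, adjusted p = 2.79e-05) and the helicase Mtrex (-0.47, adjusted p = 0.000185), and Exosc2 (0.32, adjusted p = 0.0271) was higher.

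**Figure D4:**
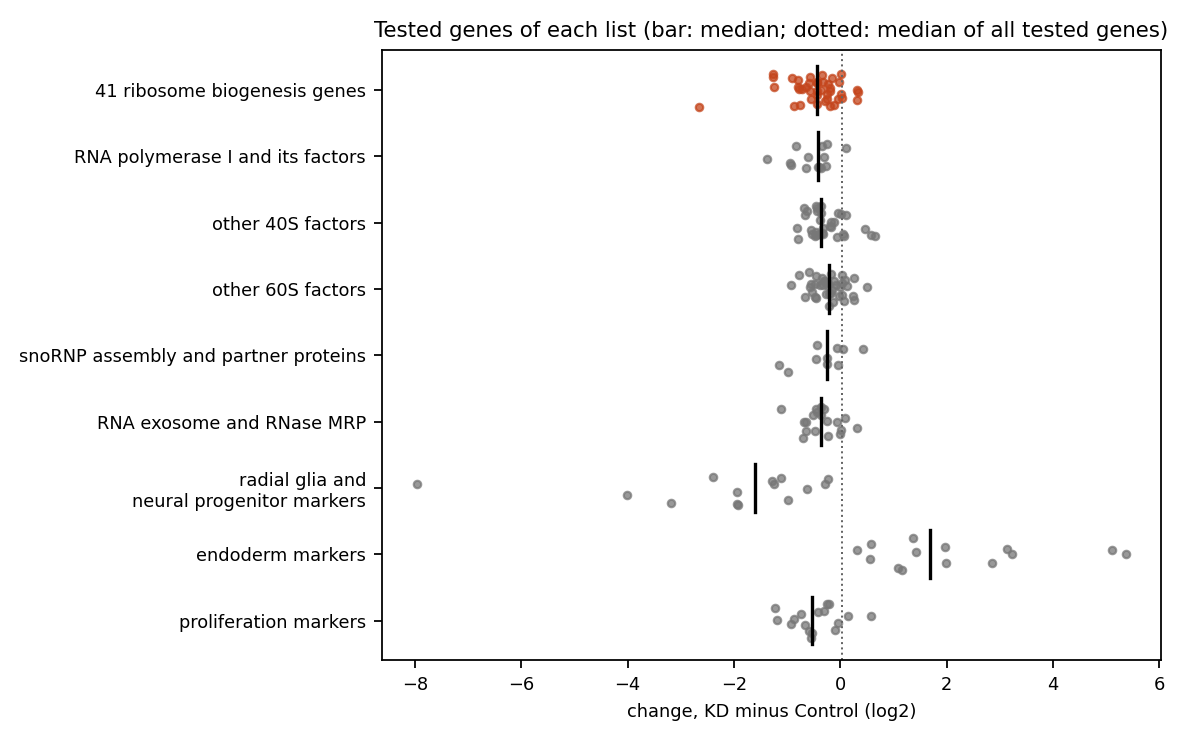
Change in log2 signal, KD minus Control, of each tested gene (points) in the 41 ribosome biogenesis genes, 5 further lists of the pathway and 3 marker lists (bar, median of the list; dotted line, median of 0.04 over all tested genes). The medians of the 6 ribosome biogenesis lists lie between -0.43 and -0.22, that of the progenitor markers at -1.60 and that of the endoderm markers at 1.69.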

How the data were processed

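Expression was measured in 8 samples on 1-colour Agilent mouse arrays with probes of 60 bases. Per the labels, 100 ng of total RNA per sample was reverse transcribed from oligo-dT, amplified by T7 polymerase and labelled with Cy3, so transcripts are read from their 3' side. Per the file headers, the deposited intensity values were made with Agilent Feature Extraction 10.7.3.1, which subtracts background within each array and does not scale between arrays. The authors' deposited value table holds log2 values, which correlated at 0.99999 with a normexp and quantile treatment of the same arrays. Its centring is not stated (median 7.13 or 7.14 in each array) and it served as an alternative only.

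From the processed intensity, outlier spots were removed, spots of a probe averaged, and the log2 was set relative to each array's 75th percentile. A probe was tested if every KD array or every Control array had it well above background (29091 probes). The fit used lmFit and eBayes of limma 3.58.1 (R 4.3.3). Its two-sided p-values were adjusted by Benjamini-Hochberg across these probes, at a threshold of 0.05. Probe pairs were compared with an exact two-sided permutation test (SciPy 1.17.1). The steps were tested on simulated data. The number of arrays limits the precision. Probe names were updated through RefSeq (26300 by accession, 2044 by symbol, 355 by synonym, 26982 kept as in the file), and coordinates of probes come from the deposited files (mm9).

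Members and lists were chosen with earlier results of these data known. All members are named. Values of every array are given, in each role group, for the 2 largest called changes, for members not called or higher and for those whose probes disagree. Of the other lists, the 3 called genes with the smallest p and up to 2 called the other way are named. All 3 higher 40S factors are named, 1 of them chosen after its values were seen, as were Fabp7, Afp and the other markers named. Alternatives were other scalings, background correction, filters, the slide or replicate number as a block, the mean of a gene's probes and each array left out. File names give KD arrays 1 and 2 a shared number and KD arrays 3 and 4 another. In each pair 1 name also carries TR, which is not explained, and no Control arrays share a number. Technical repeats cannot be told apart from separate cultures, so these pairs were also averaged or taken as a random block. If they are repeats, the KD group holds fewer independent samples than the 4 that the tests count.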

Additional observations from a re-analysis of the deposited data

Results flagged for a closer look

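In 5 of the 82 groups of 4 arrays (41 genes in each of the KD and Control groups), 1 array lay far from the other 3 by Dixon's test at the 95% level, which chance gives in about 1 in 20 groups. Control array 3 was the low one for Utp15, at a log2 signal of -1.81 where the other 3 lay between -1.11 and -1.09. It was also low for Gnl3, at 2.92 against 3.42 to 3.50, and for Nolc1, at 4.88 against 4.99 to 5.01. Control array 1 was low for Wdr12, at 3.18 against 4.10 to 4.22. KD array 1 was low for Rrs1, at 1.96 against 2.10 to 2.12.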

How the results depend on the processing

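The lower count of the 41 genes lay between 22 (no filter on dim probes) and 30 (scaling by the median) of 41 under all settings, where 28 was the main value, and the medians stayed below 0 in all of them. Leaving out 1 array gave 25 to 29 lower genes, 1 to 2 higher genes and a median of -0.43 to -0.37. The higher count, 2, became 0 under scaling by the median and 1 under normexp, without the dim filter, with the replicate block, with the KD pairs averaged and with the mean of a gene's probes, and 3 in the authors' values. The set's median change of -0.43 became -0.59 under scaling by the median, which moved the median of all tested probes to -0.12 from 0.05, and -0.29 in the authors' values. Of the other pathway genes, 7 higher became 1 under scaling by the median, 11 under quantile normalization and 11 in the authors' values, and 5 to 7 with 1 array left out. Their median of -0.33 became -0.50, -0.25 and -0.23 under those 3 settings. Scaling by the median gave 74 lower and 1 higher of these genes, quantile normalization 59 and 11. Taking the mean of a gene's probes turned Nip7 to 0.02, Wdr12 to -0.61 and Wdr43 to -0.14, took Pes1 to -1.56 and Nolc1 to -0.84, and leaving out Control replicate 1 turned Wdr12 to -0.21, where the other arrays left out gave up to 0.14. Over 41 genes and 19 settings, 719 of the repeats kept their status as called or not called, 49 lost the call and 7 gained it. In 4, the sign changed with a call in the main fit or the repeat. A change of sign without a call in either fit was counted as kept, as for Gnl2 under scaling by the median (0.02 to -0.14). For these changes the cause was not tested, apart from the probes averaged and the array left out. With the replicate number as a block, 23 genes were lower and 1 higher. The labels state no pairing by number, and the deviations of same-numbered arrays correlated at 0.105, -0.118, 0.114 and -0.19. Those of KD and Control arrays on the same slide correlated at 0.114 to 0.319, so these values cannot exclude a pairing. With the KD pairs averaged 25 genes were lower, and with the pair as a random block 27. The probe comparison gave 0 adjusted calls by the exact permutation test, and 5 of 16 pairs at an unadjusted p under 0.05. Under quantile, normexp and the authors' values, added after the data were seen, it also gave 0, which says nothing about stability, since the smallest p that 4 against 4 arrays can give leaves little room to pass the adjustment.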
